A study of Mus musculus with 16 samples.

Results

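The genes described here are targets of the transcription factor p53 and inhibitors of the cyclin-dependent kinases (CDKs), named as a list of 10: Trp53, Mdm2, Cdkn1a, Ccng1, Trp53inp1, Sesn2, Cdkn2a, Cdkn2b, Cdkn2c and Cdkn1b. Each gene was represented by its brightest probe set among those assigned to that gene alone, and 8 of the 10 were measured in this way among the 19938 genes of the array. The only probe set of Cdkn1a, which encodes the CDK inhibitor p21, is assigned to a second gene as well and gave no value, and Trp53 was not analysed here. RNA came from mouse embryonic fibroblasts of the strain C57Bl/6 x 129Sv, connective tissue cells taken from embryos into culture (MEFs). The 16 arrays (Affymetrix Mouse Gene 1.0 ST) formed 4 groups of 4: SIMPL-/- MEFs (IRAK1BP1-/- in the labels) treated with TNFα, SIMPL-/- MEFs left untreated, littermate control MEFs (WT in the labels) treated with TNFα, and littermate control MEFs left untreated. SIMPL, the product of Irak1bp1, is a partner of the NF-κB subunit p65, and the comparison asks which TNFα-regulated genes need it. The dose of recombinant human TNFα was 10 ng/ml, and its duration is 45 min in the labels and an hour in the study's methods. Those methods state that each strain's MEFs were derived 4 separate times, each time from 1 embryo, and that every set was analysed by itself. The labels do not say which array holds which set, and they give neither age nor sex.

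p53 is a tumour suppressor that is held at low levels in unstressed cells and is stabilised by DNA damage and other stresses. It then switches on genes that halt the cell cycle, repair DNA or kill the cell, and also Mdm2, the ubiquitin ligase that degrades p53 itself and so closes a feedback loop. CDK inhibitors act on the same decision to divide: the INK4 proteins (from Cdkn2a, Cdkn2b, Cdkn2c and Cdkn2d) bind the kinases that pair with D-type cyclins, while the CIP/KIP proteins (from Cdkn1a, Cdkn1b and Cdkn1c) bind cyclin-CDK complexes more broadly. The INK4 inhibitor p16, from Cdkn2a, and p19Arf, a second product of Cdkn2a that blocks Mdm2, are known for accumulating in fibroblasts kept in culture.

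All values are log2 RMA values as deposited, and a difference of 1 is a doubling. Differences are SIMPL-/- minus littermate or TNFα treated minus untreated, and a gene was called at an adjusted p under 0.05 from limma. Irak1bp1, the targeted gene, averaged 5.37 ± 0.24 in treated and 5.36 ± 0.19 in untreated SIMPL-/- MEFs, against 7.91 ± 0.18 in treated and 8.09 ± 0.17 in untreated littermate MEFs (SD, n = 4 arrays each). Array medians lay between 6.67 and 6.76, and arrays of one group correlated across genes with r of at least 0.995. Of all genes, 17.8% were called higher and 18.4% lower in SIMPL-/- MEFs after TNFα, and 23.3% higher and 17.6% lower without it. The counts of cell type markers that follow stand beside these shares. All 17 myeloid markers were called lower in SIMPL-/- MEFs with and without TNFα. Their summed level, as log2, was 12.16 to 12.23 in treated and 12.11 to 12.27 in untreated SIMPL-/- MEFs, against 14.48 to 14.89 in treated and 14.41 to 14.74 in untreated littermate MEFs. Of the 11 fibroblast markers, 3 were higher and 7 lower in SIMPL-/- MEFs in either condition. They summed to between 16.31 and 16.39 in SIMPL-/- MEFs and between 16.53 and 16.61 in littermate MEFs. Such a sum of unlogged values follows the brightest markers and hides larger differences of single ones. After TNFα, SIMPL-/- and littermate means were 14.13 and 14.35 for Col1a1, 8.32 and 11.10 for Lum and 11.75 and 12.76 for Dcn. In the other direction, S100a4 averaged 10.18 and 8.47. Of the 6 epithelial markers, 3 were higher and 0 lower after TNFα, and 4 were higher and 0 lower without it. Their sum lay between 10.68 and 10.95 in SIMPL-/- MEFs and between 9.15 and 9.39 in littermate MEFs. After TNFα, Krt18 averaged 9.25 in SIMPL-/- and 7.17 in littermate MEFs, and Epcam 5.72 and 5.71. Cartilage, bone and fat markers (8 of 9 measured, 5 higher after TNFα and 4 without it) summed to between 11.16 and 11.28 in SIMPL-/- MEFs and between 10.43 and 10.63 in littermate MEFs. For the fat markers Adipoq (2.93 and 3.07), Fabp4, Plin1 and Pparg, every SIMPL-/- array lay above every littermate array. After TNFα, SIMPL-/- and littermate means were 6.18 and 6.21 for Acan, 9.01 and 8.97 for Col2a1 (both cartilage) and 4.83 and 5.23 for Ibsp (bone). The cartilage marker Sox9 averaged 9.13 and 8.82 after TNFα and 9.06 and 9.15 without it. The sums were 10.32 to 10.49 in SIMPL-/- and 9.51 to 9.76 in littermate MEFs for neural markers (4 of 5 measured, 2 higher and 1 lower in each condition), and 10.61 to 10.74 in SIMPL-/- and 10.24 to 10.40 in littermate MEFs for muscle markers (5 of 5 measured, 3 higher in each condition). Of 5 endothelial markers 2 were higher and 1 lower after TNFα and 1 was higher without it. By limma, neither the 5 lymphoid markers measured nor the 1 erythroid marker measured passed the test. At an unadjusted p under 0.05 there were 1 lymphoid marker after TNFα and 0 without it, and 0 erythroid in both. The share of all genes at that unadjusted threshold is not given. These marker levels move with every genotype difference below, and their part in those differences was not tested. In RNA of whole cultures, fewer cells of a type and less RNA per cell cannot be told apart. No batch is given for the arrays, and a batch that followed genotype cannot be told apart from genotype.

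The counts of calls over the 8 measured genes were as follows. After TNFα, 7 of the 8 genes differed between SIMPL-/- and littermate MEFs, 2 higher and 5 lower, where 36.3% of all genes did so in either direction, 17.8% higher and 18.4% lower. Without TNFα it was 5 of the 8, 2 higher and 3 lower, against 40.9% of all genes, 23.3% higher and 17.6% lower. TNFα changed 3 of the 8 in SIMPL-/- MEFs (1 up, 2 down; 3.12% of all genes, 1.73% up and 1.39% down) and 3 of the 8 in littermate MEFs (1 up, 2 down; 5.15% of all genes, 2.70% up and 2.45% down). The response itself differed between the genotypes for 1 gene, Cdkn2b, where 0.537% of all genes did, and 0.441% of all genes had a response that was lower in SIMPL-/- MEFs, as Cdkn2b did. The median difference of the 8 genes was -0.27 after TNFα and 0.04 without it between the genotypes, beside 0.03 and 0.07 over all genes. It was -0.09 for the TNFα response in SIMPL-/- MEFs and -0.01 for that in littermate MEFs, beside -0.02 and 0.01 over all genes. These contrasts share arrays, so their counts are not independent of each other.

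**Figure D1:**
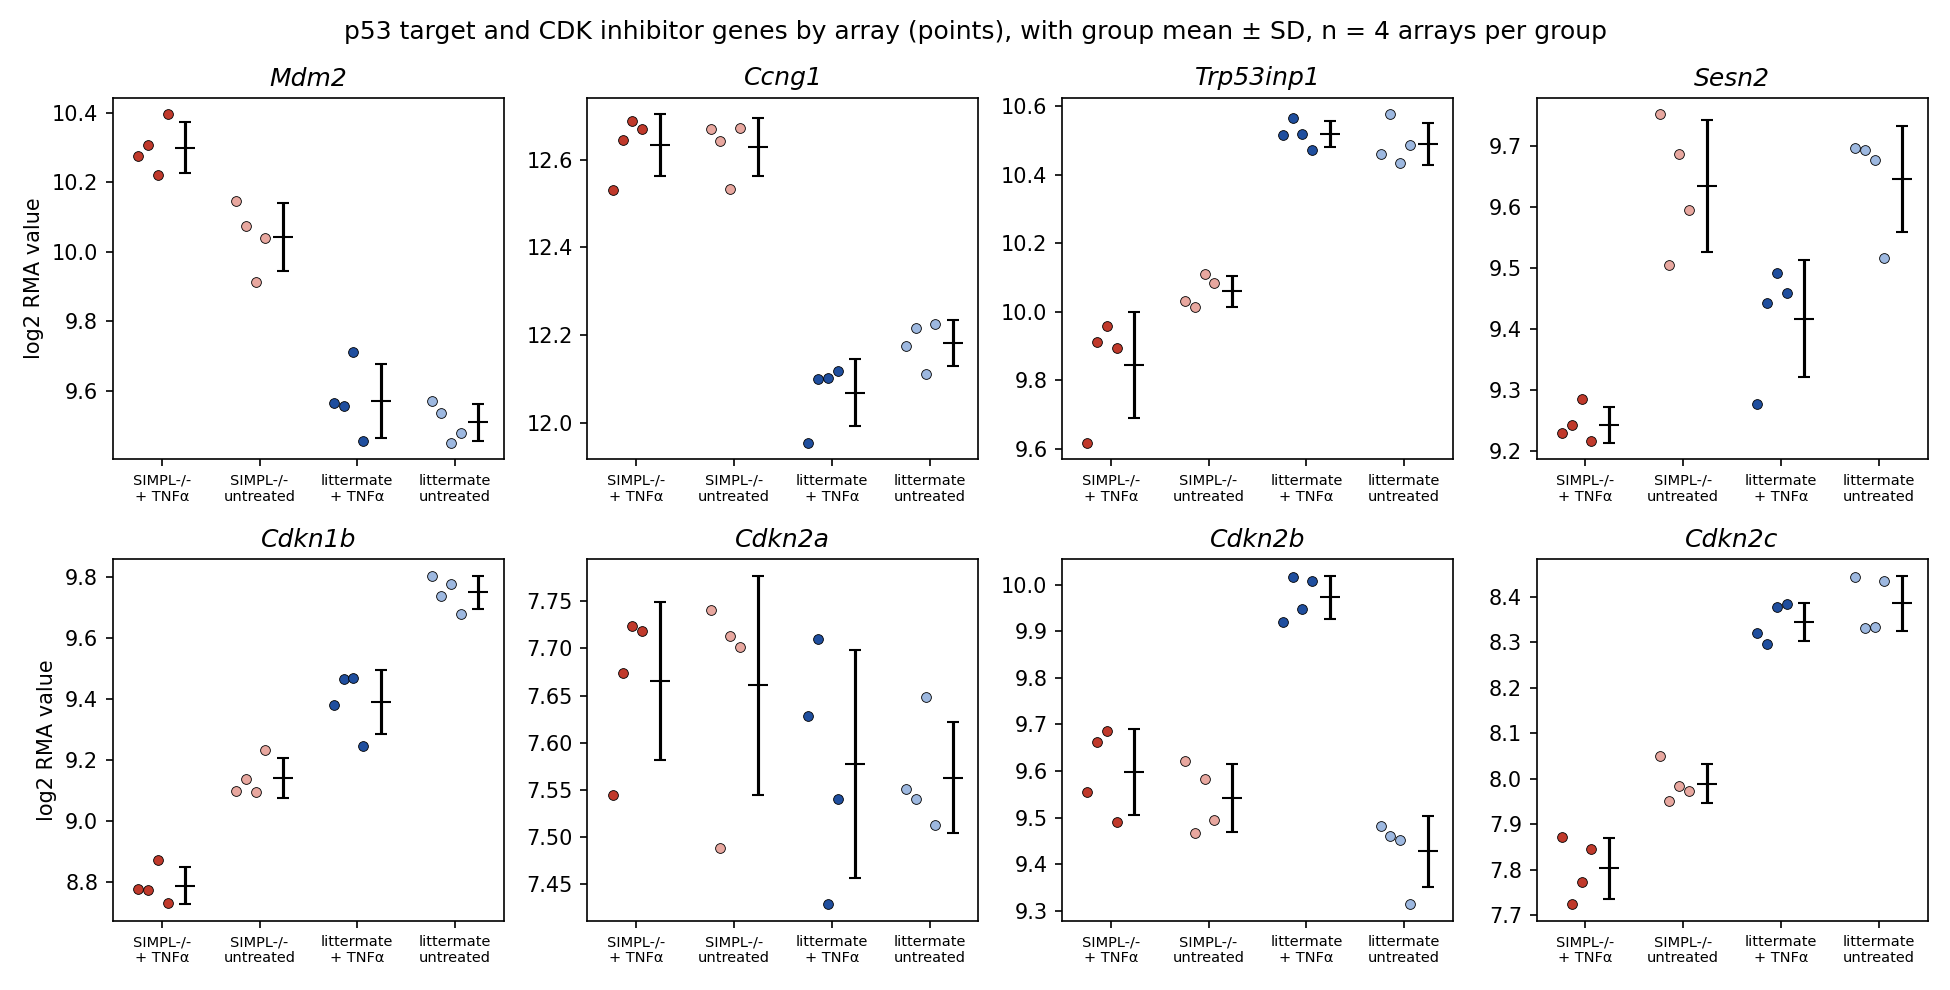
Log2 RMA value of each measured gene (one panel per gene, each with its own axis) on each of the 4 arrays of a group (points), with the group mean ± SD beside them. Mdm2 and Ccng1 sit higher in both SIMPL-/- groups, Trp53inp1, Cdkn2c and Cdkn1b sit lower, and Cdkn2b stands apart in treated littermate MEFs alone, at 9.92 to 10.02.

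Promoters are shown for Mdm2 and Ccng1, which were both higher in SIMPL-/- MEFs, and for Cdkn2b, whose TNFα response differed between the genotypes. They are the 250 bases before the RefSeq start (GRCm38.p6), read 5′ to 3′ on the gene's strand, at chr10:117710759-117711008 (minus strand) for Mdm2, chr11:40755287-40755536 (minus strand) for Ccng1 and chr4:89311033-89311282 (minus strand) for Cdkn2b. Capitals mark matches, on either strand, to a p53 half-site consensus, to an NF-κB consensus, to the TATAAA box, to the CCAAT box or to the GC box (GGGCGG).
Mdm2: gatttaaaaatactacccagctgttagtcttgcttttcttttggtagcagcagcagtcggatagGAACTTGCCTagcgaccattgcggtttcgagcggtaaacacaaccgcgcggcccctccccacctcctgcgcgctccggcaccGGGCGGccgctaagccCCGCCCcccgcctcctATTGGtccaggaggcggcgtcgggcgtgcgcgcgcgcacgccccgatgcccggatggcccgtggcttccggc
Ccng1: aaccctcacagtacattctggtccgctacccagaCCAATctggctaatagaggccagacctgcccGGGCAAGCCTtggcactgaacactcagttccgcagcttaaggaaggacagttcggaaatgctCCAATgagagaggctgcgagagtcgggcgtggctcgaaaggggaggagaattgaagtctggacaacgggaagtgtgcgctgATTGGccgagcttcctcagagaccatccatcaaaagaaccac
Cdkn2b: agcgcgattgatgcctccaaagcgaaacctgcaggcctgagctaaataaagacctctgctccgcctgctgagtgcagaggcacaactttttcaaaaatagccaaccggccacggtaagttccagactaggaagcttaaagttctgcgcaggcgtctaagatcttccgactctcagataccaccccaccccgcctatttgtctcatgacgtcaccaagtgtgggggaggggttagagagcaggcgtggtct
The Mdm2 window holds the half-site match GAACTTGCCT, 186 to 177 bases before the start, and the Ccng1 window holds GGGCAAGCCT, 185 to 176 bases before it. Both read as a match on either strand and count as 1 each. RefSeq windows were found for 7 of the 8 genes, all but Trp53inp1, and with second starts of Cdkn2a and Cdkn2c there were 9. A p53 half-site was matched in 2 of the 9 and in 7.13% of 32851 promoter windows of the same length, CCAAT in 4 of the 9 and in 33.8%, and GGGCGG in 5 of the 9 and in 32.7%. Neither the NF-κB consensus nor TATAAA was matched in any of the 9, and they were matched in 7.25% and 12.4% of all windows. The Cdkn2b window has no capitals, since none of these motifs is in these 250 bases, and a match or its absence describes the letters alone.

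Of the p53 targets, Mdm2 was higher in SIMPL-/- MEFs both with and without TNFα. The treated SIMPL-/- arrays read 10.28, 10.31, 10.22 and 10.40, and the untreated ones 10.15, 10.07, 9.91 and 10.04. The treated littermate arrays read 9.56, 9.55, 9.71 and 9.45, and the untreated ones 9.57, 9.54, 9.45 and 9.48. Every SIMPL-/- array thus lay above every littermate array, and every treated SIMPL-/- array lay above every untreated one, while the littermate groups overlapped. The genotype difference was 0.73 after TNFα (SE 0.06, 1.66-fold, adjusted p = 2.92e-08) and 0.53 without it (SE 0.06, 1.45-fold, adjusted p = 2.10e-06). TNFα raised Mdm2 in SIMPL-/- MEFs by 0.26 (SE 0.06, adjusted p = 0.0332), and the value in littermate MEFs was 0.06 (adjusted p = 0.697). The difference between the responses, 0.20 with a 95% interval of 0.00 to 0.39, did not pass the test (adjusted p = 0.379). The TNFα call in SIMPL-/- MEFs was lost without untreated SIMPL-/- replicate 2, 3 or 4 (0.27, 0.21 and 0.26) and without treated SIMPL-/- replicate 1, 2 or 4 (0.27, 0.26 and 0.23), and over all 16 single-array omissions its adjusted p ran from 0.0242 to 0.122.

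Ccng1, which encodes cyclin G1, a partner of phosphatase 2A that acts on Mdm2, was also higher in SIMPL-/- MEFs. It read 12.53, 12.64, 12.69 and 12.67 on the treated and 12.67, 12.64, 12.53 and 12.67 on the untreated SIMPL-/- arrays. The littermate arrays read 11.95, 12.10, 12.10 and 12.12 with TNFα and 12.17, 12.22, 12.11 and 12.23 without. The genotypes did not overlap in either condition, and treated and untreated arrays overlapped within each genotype. The genotype difference was 0.56 after TNFα (SE 0.06, 1.48-fold, adjusted p = 1.72e-07) and 0.45 without it (SE 0.06, 1.36-fold, adjusted p = 3.96e-06). The TNFα response was 0.00 in SIMPL-/- MEFs (95% interval -0.12 to 0.12) and -0.11 in littermate MEFs (-0.23 to 0.01), and neither passed the test (adjusted p = 0.985 and 0.333).

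Trp53inp1, whose product is a stress-induced nuclear protein that promotes p53 activity and autophagy, went the other way. It read 9.62, 9.91, 9.96 and 9.90 on the treated and 10.03, 10.01, 10.11 and 10.08 on the untreated SIMPL-/- arrays. On littermate arrays it read 10.52, 10.57, 10.52 and 10.47 with TNFα and 10.46, 10.58, 10.43 and 10.49 without. The SIMPL-/- arrays were all below the littermate arrays, and replicate 1 of the treated SIMPL-/- group was the lowest of the 16. The genotype difference was -0.67 after TNFα (SE 0.07, 1.60-fold lower, adjusted p = 1.15e-07) and -0.43 without it (SE 0.07, 1.35-fold lower, adjusted p = 3.61e-05). The TNFα response was -0.21 in SIMPL-/- MEFs (adjusted p = 0.0950) and 0.03 in littermate MEFs (adjusted p = 0.886). Although the treated and untreated SIMPL-/- arrays did not overlap, that response was past the threshold only without treated replicate 3 among the single-array omissions (-0.25, adjusted p = 0.0495), and it was -0.14 without treated replicate 1 (adjusted p = 0.226).

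Sesn2, which encodes a sestrin that restrains mTORC1 under nutrient and genotoxic stress, was lower after TNFα in both genotypes. The SIMPL-/- arrays read 9.23, 9.24, 9.28 and 9.22 with TNFα and 9.75, 9.50, 9.69 and 9.59 without. The littermate arrays read 9.28, 9.44, 9.49 and 9.46 with TNFα and 9.70, 9.69, 9.68 and 9.52 without. In each genotype every treated array was below every untreated array, the nearest littermate pair being 9.49 treated and 9.52 untreated. TNFα lowered Sesn2 by 0.39 in SIMPL-/- MEFs (SE 0.06, 1.31-fold lower, adjusted p = 0.00115) and by 0.23 in littermate MEFs (SE 0.06, 1.17-fold lower, adjusted p = 0.0465). The responses differed by -0.16 (95% interval -0.35 to 0.03, adjusted p = 0.467). Without TNFα the genotype difference was -0.01 (95% interval -0.15 to 0.12, adjusted p = 0.896), and after TNFα it was -0.17 (SE 0.06, adjusted p = 0.0420) with overlapping groups.

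The Sesn2 calls for the littermate response and for the genotype difference after TNFα depend on single arrays. The littermate response held its call in 4 of 16 single-array omissions, those of untreated littermate replicate 4, treated littermate replicate 3 and untreated SIMPL-/- replicates 1 and 2, with values from -0.27 to -0.18 and adjusted p from 0.0246 to 0.159 over all 16. The genotype difference after TNFα lost its call without treated littermate replicate 2, 3 or 4 (-0.17, -0.15 and -0.16) and without any 1 of the treated SIMPL-/- replicates 1 to 4 (-0.17, -0.17, -0.19 and -0.17), with adjusted p from 0.0128 to 0.118 over all 16. Centring each array on its median ended both calls as well, at -0.23 and -0.17. The fall in SIMPL-/- MEFs was called in every single-array omission, at -0.43 to -0.35.

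Cdkn2b, the gene of the INK4 inhibitor p15, which is best known as a target of TGF-β signalling, was the one member whose TNFα response differed between the genotypes. Its treated SIMPL-/- arrays read 9.56, 9.66, 9.68 and 9.49, and the untreated ones 9.62, 9.47, 9.58 and 9.49. Its treated littermate arrays read 9.92, 10.02, 9.95 and 10.01, and the untreated ones 9.48, 9.46, 9.45 and 9.31. The treated littermate arrays stood above the other 12, and the remaining groups overlapped each other, except that all treated SIMPL-/- arrays were above all untreated littermate arrays. TNFα raised Cdkn2b in littermate MEFs by 0.55 (SE 0.06, 1.46-fold, adjusted p = 4.83e-06), and in SIMPL-/- MEFs the value was 0.06 (95% interval -0.07 to 0.18, adjusted p = 0.719). The difference between the responses, SIMPL-/- minus littermate, was -0.49 (SE 0.08, 95% interval -0.67 to -0.31, adjusted p = 0.00805). The genotype difference was -0.37 after TNFα (SE 0.06, adjusted p = 4.70e-05) and 0.11 without it (95% interval -0.01 to 0.24, adjusted p = 0.133). Leaving out any single array kept the difference between the responses at -0.52 to -0.45, with adjusted p from 0.00614 to 0.0234.

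Cdkn2a lies beside Cdkn2b on chromosome 4. Its probe set gives 1 value for the gene, in which the transcripts of p16 and p19Arf cannot be told apart. It read 7.54, 7.67, 7.72 and 7.72 on treated and 7.74, 7.49, 7.71 and 7.70 on untreated SIMPL-/- arrays, against 7.63, 7.71, 7.43 and 7.54 on treated and 7.55, 7.54, 7.65 and 7.51 on untreated littermate arrays. All 4 groups overlapped. No contrast passed the test for Cdkn2a: the TNFα response was 0.00 in SIMPL-/- MEFs (95% interval -0.14 to 0.15, adjusted p = 0.986) and 0.01 in littermate MEFs (-0.13 to 0.16, adjusted p = 0.954), and the genotype difference was 0.09 after TNFα (-0.06 to 0.24, adjusted p = 0.361) and 0.10 without it (-0.05 to 0.25, adjusted p = 0.272). Of 11 RefSeq genes that flank or lie between the pair, 3 were measured, Mtap, Dmrta1 and Zfp352. Mtap, the methylthioadenosine phosphorylase gene on the Cdkn2a side, read 9.52 to 9.72 on treated and 9.34 to 9.53 on untreated SIMPL-/- arrays, against 8.96 to 9.06 on treated and 8.99 to 9.08 on untreated littermate arrays, so that the genotypes did not overlap. Its genotype difference was 0.61 after TNFα (adjusted p = 5.15e-08) and 0.40 without it (adjusted p = 1.51e-05), and its TNFα response did not pass the test in either genotype (adjusted p = 0.121 in SIMPL-/- and 0.781 in littermate MEFs). Zfp352 was higher in SIMPL-/- MEFs after TNFα (0.47) and without it (0.24), and Dmrta1 without it (0.25, adjusted p = 0.00984). Both are dim, with group means of 5.55 to 6.02 for Zfp352 and 5.08 to 5.33 for Dmrta1.

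Cdkn2c, the gene of the INK4 inhibitor p18, was lower in SIMPL-/- MEFs. It read 7.87, 7.72, 7.77 and 7.85 on treated and 8.05, 7.95, 7.99 and 7.97 on untreated SIMPL-/- arrays, and 8.32, 8.30, 8.38 and 8.38 on treated and 8.44, 8.33, 8.33 and 8.43 on untreated littermate arrays. No SIMPL-/- array reached the lowest littermate array. The genotype difference was -0.54 after TNFα (SE 0.05, 1.45-fold lower, adjusted p = 9.82e-08) and -0.40 without it (SE 0.05, 1.32-fold lower, adjusted p = 6.25e-06). The TNFα response was -0.19 in SIMPL-/- MEFs (adjusted p = 0.0619, with groups that did not overlap) and -0.04 in littermate MEFs (adjusted p = 0.765).

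Cdkn1b, the gene of the CIP/KIP inhibitor p27, was lower after TNFα in both genotypes and lower in SIMPL-/- MEFs in both conditions, so that its 4 groups formed an unbroken order with no overlap. Treated SIMPL-/- arrays read 8.78, 8.77, 8.87 and 8.73 and untreated ones 9.10, 9.14, 9.09 and 9.23. Treated littermate arrays read 9.38, 9.47, 9.47 and 9.25 and untreated ones 9.81, 9.74, 9.78 and 9.68. TNFα lowered Cdkn1b by 0.35 in SIMPL-/- MEFs (SE 0.06, 1.28-fold lower, adjusted p = 0.00142) and by 0.36 in littermate MEFs (SE 0.06, 1.28-fold lower, adjusted p = 0.000727). The responses differed by 0.01 (95% interval -0.17 to 0.18, adjusted p = 0.984). The genotype difference was -0.60 after TNFα (SE 0.06, 1.52-fold lower, adjusted p = 1.33e-07) and -0.61 without it (SE 0.06, 1.53-fold lower, adjusted p = 1.34e-07). The dimmer of the 2 probe sets of Cdkn1b gave larger genotype differences, -0.95 and -1.13, and TNFα responses of -0.32 in SIMPL-/- MEFs, which was not called (adjusted p = 0.111), and -0.50 in littermate MEFs (adjusted p = 0.00569).

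**Figure D2:**
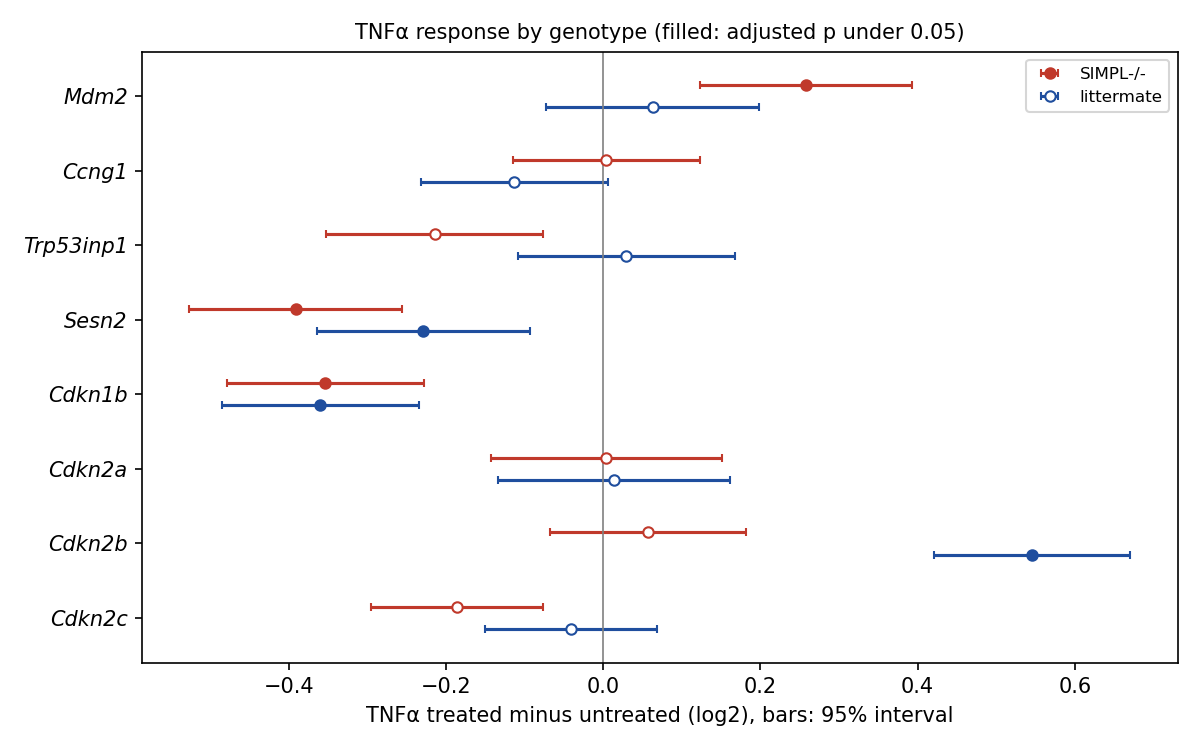
TNFα response (treated minus untreated, log2) of each measured gene in SIMPL-/- and littermate MEFs, with 95% intervals from limma that are not adjusted for the number of genes; filled points passed the adjusted test. The intervals of the genotypes lie apart for Cdkn2b alone, at 0.06 in SIMPL-/- and 0.55 in littermate MEFs, and the points of Cdkn1b nearly coincide, at -0.35 and -0.36.

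The arrays of the groups compared did not overlap for 5 of the 8 genes in the TNFα response in SIMPL-/- MEFs (9.28% of all genes) and for 3 of the 8 in that in littermate MEFs (11.4%). Between the genotypes they did not overlap for 6 of the 8 after TNFα (33.3% of all genes) and 5 of the 8 without it (39.6%).

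The other CDK inhibitors measured were Cdkn1c and Cdkn2d, and both were lower in SIMPL-/- MEFs. Cdkn1c, the gene of the imprinted CIP/KIP inhibitor p57, read 8.99, 9.34, 9.35 and 9.13 on treated and 9.16, 9.27, 9.51 and 9.39 on untreated SIMPL-/- arrays, against 12.19, 12.01, 12.05 and 11.96 on treated and 11.90, 11.95, 11.95 and 11.94 on untreated littermate arrays. That is a wide gap with no overlap, a difference of -2.85 after TNFα (SE 0.08, 7.21-fold lower, adjusted p = 1.35e-14) and -2.60 without it (SE 0.08, 6.08-fold lower, adjusted p = 3.82e-14). Cdkn2d, the gene of the INK4 inhibitor p19, averaged 7.47 ± 0.11 in treated and 7.73 ± 0.08 in untreated SIMPL-/- MEFs, against 7.82 ± 0.02 in treated and 8.01 ± 0.15 in untreated littermate MEFs (SD, n = 4 arrays each). Its genotype difference was -0.35 after TNFα (adjusted p = 0.000813) and -0.28 without it (adjusted p = 0.00513), where the groups overlapped. Of the 6 CDK inhibitor genes measured, 5 were lower in SIMPL-/- MEFs after TNFα (18.4% of all genes) and 4 lower without it (17.6% of all genes), and Cdkn2a passed the test in neither condition. TNFα responses of Cdkn1c and Cdkn2d did not pass the test in SIMPL-/- MEFs (adjusted p = 0.506 and 0.0670) or in littermate MEFs (0.534 and 0.179).

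**Figure D3:**
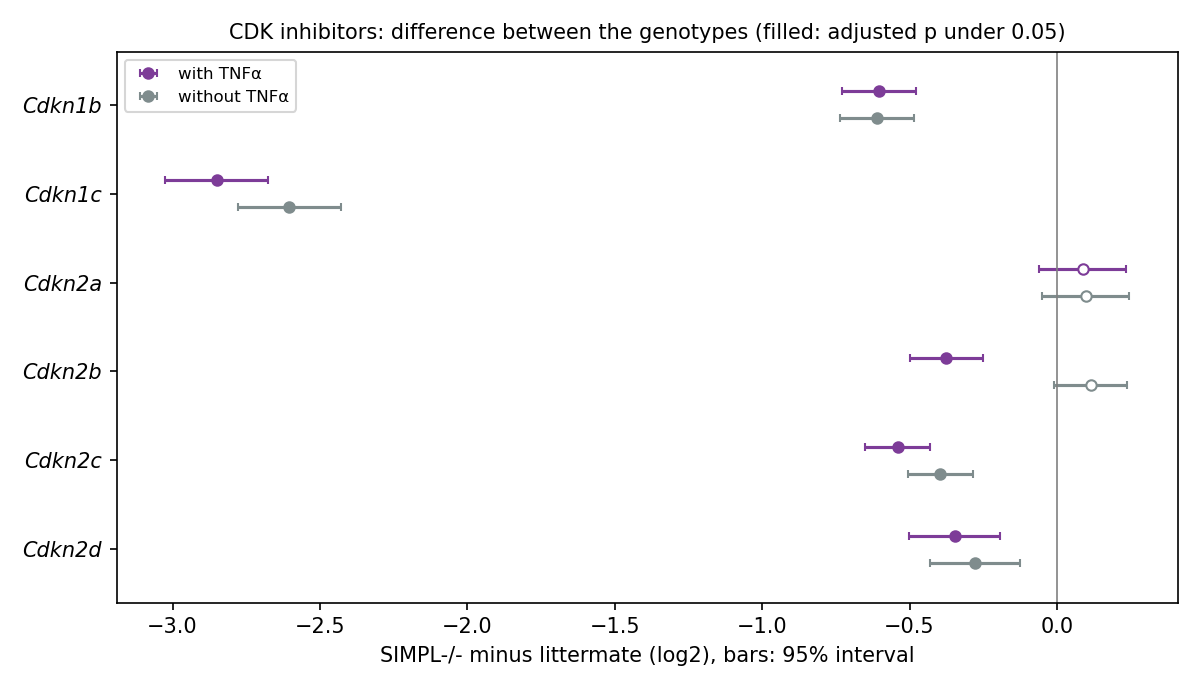
Genotype difference (SIMPL-/- minus littermate, log2) of the 6 measured CDK inhibitor genes with and without TNFα, with 95% intervals from limma that are not adjusted for the number of genes; filled points passed the adjusted test. Cdkn1c lies far to the left at -2.85 and -2.60, and the points of Cdkn2b fall on opposite sides of 0, at -0.37 with and 0.11 without TNFα.

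Of 40 further p53 target genes, 37 were measured, and between the genotypes they changed in both directions. After TNFα 16 were higher and 10 lower in SIMPL-/- MEFs, where 17.8% of all genes were higher and 18.4% lower, with a median of 0.18 beside 0.03 over all genes. Without TNFα 21 were higher and 5 lower, where 23.3% of all genes were higher and 17.6% lower, with a median of 0.25 beside 0.07 over all genes. The largest falls were in Sesn1, the sestrin gene first found as a p53 target (-1.21 after TNFα, adjusted p = 5.29e-09, and -1.02 without it, adjusted p = 5.92e-08), Pltp, which encodes the phospholipid transfer protein of plasma (-1.18 and -1.02), and Gadd45a, a DNA damage and growth arrest gene (-0.97 after TNFα). Sfn, the gene of the G2 checkpoint protein 14-3-3σ, was higher by 0.89 after TNFα and 0.82 without it. Ak1, an adenylate kinase gene, was higher by 0.73 without TNFα, and after it averaged 10.38 in SIMPL-/- and 9.77 in littermate MEFs. Gadd45a averaged 9.21 in untreated SIMPL-/- and 9.93 in untreated littermate MEFs.

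TNFα changed 3 of the 37 in SIMPL-/- MEFs (3.12% of all genes) and 10 of the 37 in littermate MEFs, 7 up and 3 down (5.15% of all genes). Btg2, an antiproliferative gene that also responds to growth factors, averaged 9.62 ± 0.05 in treated and 8.70 ± 0.12 in untreated SIMPL-/- MEFs, against 9.91 ± 0.17 in treated and 8.22 ± 0.15 in untreated littermate MEFs (SD, n = 4 arrays each). Its rise was 0.93 in SIMPL-/- MEFs (adjusted p = 1.13e-06) and 1.69 in littermate MEFs (adjusted p = 8.94e-11). The gene of the death receptor Fas averaged 7.88 ± 0.24 in treated and 7.18 ± 0.23 in untreated SIMPL-/- MEFs, against 8.54 ± 0.06 in treated and 7.08 ± 0.07 in untreated littermate MEFs (SD, n = 4 arrays each). Its rise was 0.70 in SIMPL-/- MEFs (adjusted p = 0.000544) and 1.46 in littermate MEFs (adjusted p = 1.97e-08). These 2 were the only further targets whose responses differed, with SIMPL-/- minus littermate at -0.76 for Btg2 (SE 0.12, adjusted p = 0.00413) and -0.77 for Fas (SE 0.15, adjusted p = 0.0239).

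The death receptor gene Tnfrsf10b rose in both genotypes, by 0.32 in SIMPL-/- and 0.39 in littermate MEFs, and Ddit4l, an mTOR inhibitor gene, fell by 0.46 in littermate MEFs. The count of 3 in SIMPL-/- MEFs was 6 without treated SIMPL-/- replicate 3 and 5 without treated littermate replicate 4. In the same omissions the 623 calls over all genes became 797 and 613. The call of the difference for Fas was lost without untreated littermate replicate 4 (-0.73), treated littermate replicate 2 (-0.74), untreated SIMPL-/- replicate 3 (-0.74) or treated SIMPL-/- replicate 1, 2 or 4 (-0.68, -0.76 and -0.75), with adjusted p from 0.00324 to 0.0638 over all 16 single-array omissions. That for Btg2 was called in all 16.

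**Figure D4:**
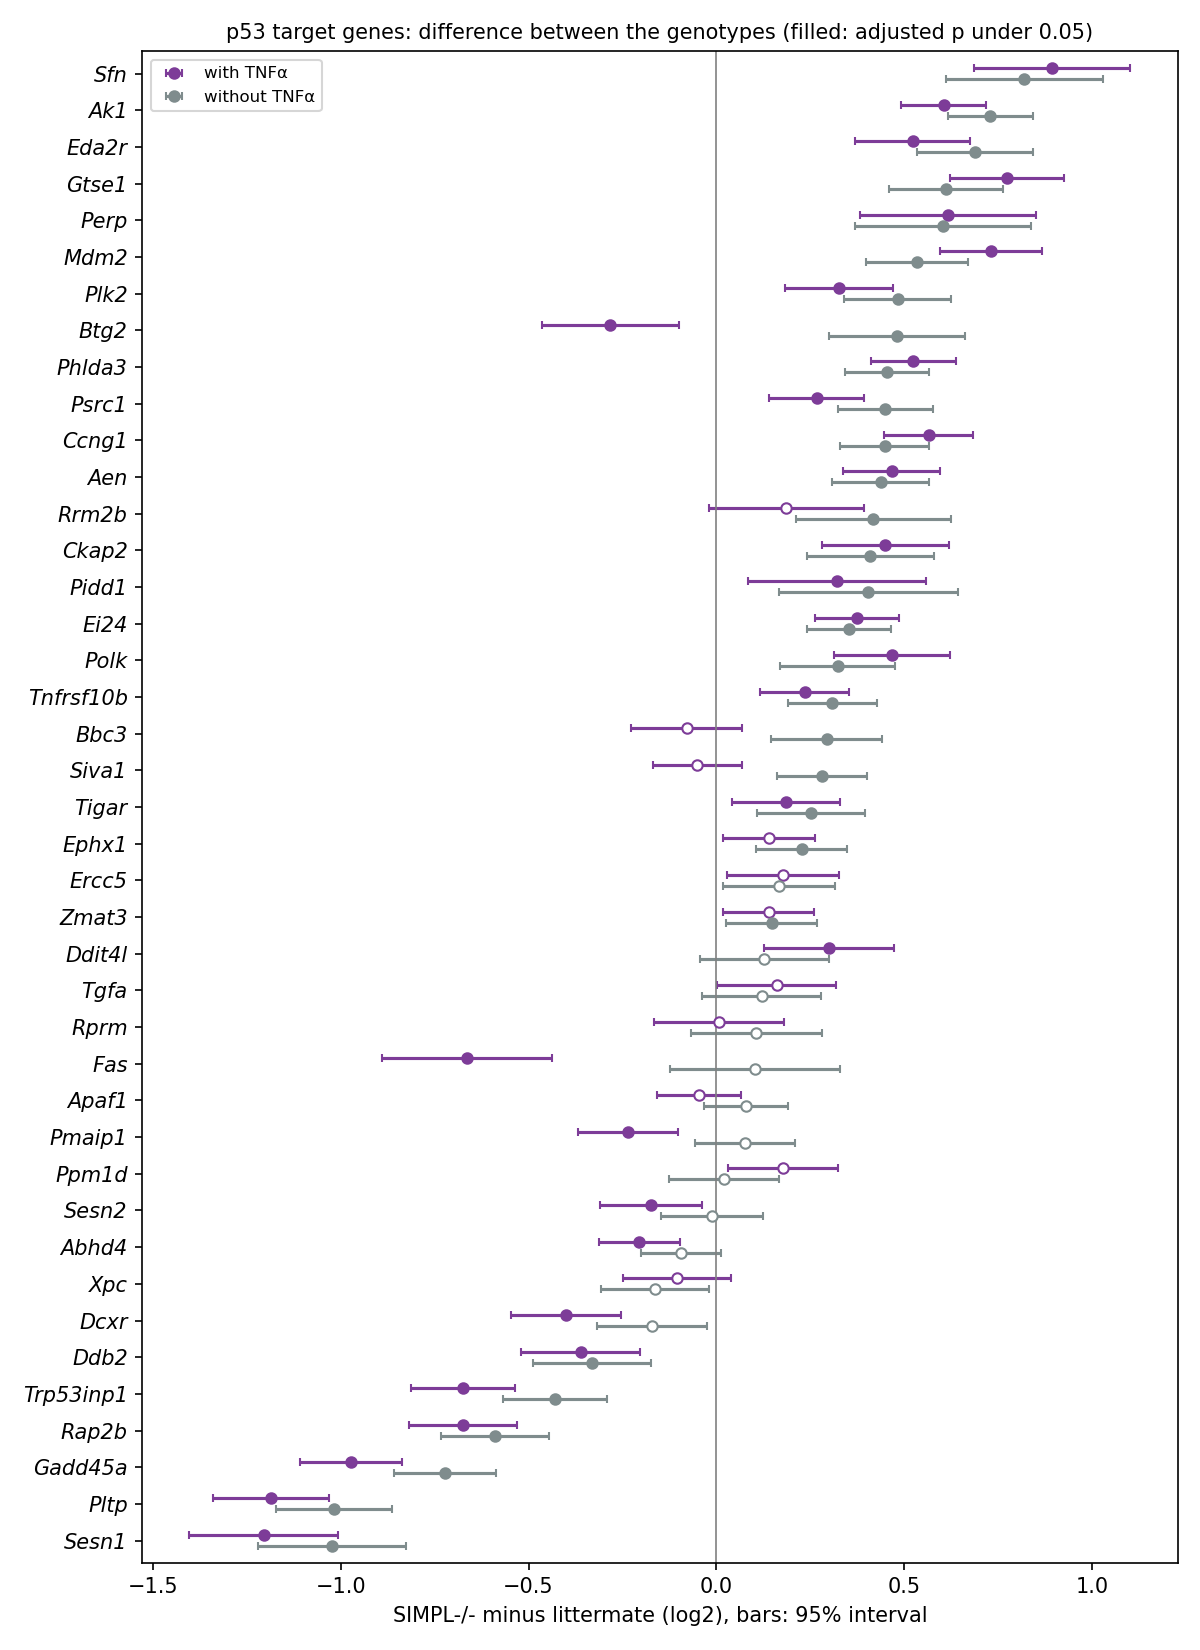
Genotype difference (SIMPL-/- minus littermate, log2) of the 41 measured p53 target genes, Mdm2, Ccng1, Trp53inp1 and Sesn2 included, with and without TNFα, ordered by the value without TNFα; bars are 95% intervals from limma, not adjusted for the number of genes, and filled points passed the adjusted test. Mdm2 (0.73 and 0.53) and Ccng1 (0.56 and 0.45) lie among the higher genes and Trp53inp1 (-0.67 and -0.43) among the lower. The points of Btg2 (-0.28 and 0.48) and Fas (-0.66 and 0.10, the latter not called) lie on opposite sides of 0, as do others, Bbc3, Pmaip1 and Siva1 among them.

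The counts of the remaining lists stand beside 17.8% of all genes higher and 18.4% lower in SIMPL-/- MEFs after TNFα, 23.3% higher and 17.6% lower without it, and 3.12% and 5.15% changed by TNFα in SIMPL-/- and littermate MEFs. For counts at an unadjusted p under 0.05 the share of all genes is not given, so they cannot be set against a general rate. Of 18 kinases, ligases and partners that control p53, 4 were higher and 5 lower in SIMPL-/- MEFs after TNFα, and 2 were higher and 7 lower without it. Ppp1r13l, the gene of iASPP, an inhibitor of p53, was higher by 0.81 after TNFα (adjusted p = 1.11e-07) and 0.47 without it. Hipk2, a kinase gene, was higher by 0.69 after TNFα, and without it averaged 9.57 in SIMPL-/- and 9.17 in littermate MEFs. Atm, the gene of the DNA damage kinase, was lower (-0.50 after TNFα and -0.80 without it adjusted p = 5.08e-06). Without TNFα the acetyltransferase gene Ep300 (-0.53) and Mdm4, the partner of Mdm2 (-0.43), were lower too. In littermate MEFs TNFα lowered 2 of the 18, Ep300 (-0.31) and Ppp1r13b (-0.30). Without untreated littermate replicate 3, 1 of the 18 was called, and the 1026 calls over all genes became 807. In SIMPL-/- MEFs TNFα changed none by limma, with 4 at an unadjusted p under 0.05. Without treated littermate replicate 1 or 4 or treated SIMPL-/- replicate 3, 1 was called, and the 623 calls over all genes became 653, 613 and 797.

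Of 15 Polycomb proteins and other regulators of the Cdkn2a-Cdkn2b locus, TNFα raised 4 in SIMPL-/- MEFs, and raised 3 and lowered 2 in littermate MEFs. Kdm6b, the gene of the demethylase that removes the Polycomb mark, averaged 9.59 ± 0.03 in treated and 8.94 ± 0.07 in untreated SIMPL-/- MEFs, against 9.56 ± 0.07 in treated and 9.12 ± 0.07 in untreated littermate MEFs (SD, n = 4 arrays each). Its rise was 0.65 in SIMPL-/- MEFs (adjusted p = 2.80e-07) and 0.44 in littermate MEFs (adjusted p = 2.48e-05). Ets2 and Ets1, genes of transcription factors that act on the p16 promoter in human cells, rose by 0.41 and 0.33 in SIMPL-/- and by 0.77 and 0.66 in littermate MEFs. Tbx3, a repressor gene, rose by 0.34 in SIMPL-/- MEFs, and Cbx8, a Polycomb subunit gene, fell by 0.33 in littermate MEFs. Of these regulators, 5 were higher and 3 lower in SIMPL-/- MEFs after TNFα, and 2 were higher and 4 lower without it. Ets2 (-1.03 and -0.66) was lower and Ets1 (0.72 and 1.05) higher in both conditions. None of the 15 responded differently between the genotypes by limma, with 5 at an unadjusted p under 0.05.

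Of 12 FOXO factors, SCF-Skp2 subunits and other regulators of p27 and p21, 11 were measured. TNFα raised 2 and lowered 1 in SIMPL-/- MEFs, and raised 3 and lowered 1 in littermate MEFs. Myc, a repressor of CDK inhibitor genes among its other roles, rose by 0.45 in SIMPL-/- MEFs (adjusted p = 0.0180) and by 0.79 in littermate MEFs (adjusted p = 4.65e-05). Klf6, a zinc finger factor gene, rose by 0.26 in SIMPL-/- and 0.54 in littermate MEFs, and Foxo1, an activator of Cdkn1b, fell by 0.30 in SIMPL-/- MEFs. Skp2, which encodes the subunit that targets p27 for degradation, fell by 0.28 in littermate MEFs. It was 0.45 higher in SIMPL-/- than in littermate MEFs after TNFα. In untreated SIMPL-/- and littermate MEFs, Skp2 averaged 8.75 and 8.51, and Myc 9.98 and 9.33. Foxo3 was lower in SIMPL-/- MEFs, with differences of -0.49 after TNFα and -0.40 without it. In each condition 3 of the 11 were higher and 3 lower in SIMPL-/- MEFs. The count of 3 for the response in SIMPL-/- MEFs was 0 without untreated SIMPL-/- replicate 3, and 1 without untreated SIMPL-/- replicate 4 or treated SIMPL-/- replicate 2 or 4. Calls over all genes, 623 with every array, were 438, 417, 400 and 502 in these omissions.

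Among 11 measured CDKs and cyclins, 4 were higher and 1 lower in SIMPL-/- MEFs after TNFα, and 2 were higher and 2 lower without it. Ccne2, an S phase cyclin gene, was higher by 0.91 after TNFα (adjusted p = 4.43e-08) and 0.66 without it, and Ccne1 was 0.41 higher after TNFα. TNFα lowered Ccne1 by 0.28 in littermate MEFs (adjusted p = 0.00889), the only call among the TNFα responses of these 11 genes by limma, and 2 reached an unadjusted p under 0.05 in SIMPL-/- MEFs. Of 11 members of the RB family and E2F factors, 5 were higher and 2 lower after TNFα, E2f3 (0.57), E2f6 (0.55) and E2f7 (0.52) among the higher ones, and 3 were higher and 2 lower without it, Rbl2 being lower (-0.41). TNFα raised E2f8 by 0.33 in SIMPL-/- MEFs (adjusted p = 0.0482), a call that held in 5 of 16 single-array omissions, those of untreated littermate replicate 2, treated littermate replicates 1, 3 and 4 and treated SIMPL-/- replicate 3. In littermate MEFs TNFα changed none of these 11 by limma, with 3 at an unadjusted p under 0.05. Without untreated littermate replicate 3 or treated littermate replicate 4, 1 was called, and the 1026 calls over all genes became 807 and 756. Of 16 proliferation genes, 7 were higher and 1 lower after TNFα (36.3% of all genes called), and 7 were higher and 2 lower without it (40.9% of all genes called). Rrm2, a ribonucleotide reductase gene of S phase, was higher by 0.78 after TNFα and 0.61 without it, and Mki67, the gene of the Ki-67 antigen, was lower (-0.42 without it). TNFα changed none of the 16 in either genotype by limma, with 4 in SIMPL-/- and 2 in littermate MEFs at an unadjusted p under 0.05. Without treated SIMPL-/- replicate 4, 2 were called in SIMPL-/- and 1 in littermate MEFs. The calls over all genes were then 502 in place of 623 in SIMPL-/- and 1083 in place of 1026 in littermate MEFs. Among the regulators of p53, the CDKs and cyclins and the RB and E2F genes, no response differed between the genotypes by limma. The same held for the regulators of p27 and p21 and for the proliferation genes. In that order, 5, 2, 2, 4 and 0 reached an unadjusted p under 0.05, with no share of all genes beside them. Without treated littermate replicate 1, 1 regulator of p27 and p21 was called, and the 107 calls over all genes became 89.

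The genes whose values followed each member most closely over the 16 arrays, by Pearson's r, were Tmed5 for Mdm2 (0.985), Rrm1 for Ccng1 (0.985), Tbl1xr1 for Trp53inp1 (0.987), Gab1 for Cdkn2c (0.978) and Ephb3 for Cdkn1b (0.976). For Sesn2 they were Tns2 (0.935), Chac1 (0.896) and Cdca2 (0.886). For Cdkn2b they were Ccrl2 (0.956), Rab20 (0.944) and Cebpd (0.942), and for Cdkn2a Pex16 (0.887), Cdc37 (0.817) and Gabarapl2 (0.815). The 16 arrays fall into the same 4 groups for both genes of a pair.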

How the data were processed

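Total RNA of MEFs was hybridised to 16 arrays. The authors deposited log2 values made with RMA in Partek, per the labels, with no versions given, while the study's methods name Affymetrix Microarray Suite; RMA shrinks differences of dim genes. Of 28853 probe sets, 21789 have 1 gene symbol, 1621 several and 5443 none listed, which gave 19938 genes, each taken at its brightest probe set. Samples were grouped by their labels. Replicate numbers follow accession order and pair nothing. A mean per group was fitted to all arrays with limma 3.58.1 in R 4.3.3, with 12 residual and 6.19 prior degrees of freedom, two-sided tests and Benjamini-Hochberg adjustment over all genes of a contrast. The study's methods describe 4 independently derived sets of MEFs per strain, which the labels do not tie to arrays, so treated and untreated arrays of 1 set were fitted as if separate. The number of arrays limits precision. Promoters came from RefSeq (GRCm38.p6). The members and gene lists were chosen with earlier results of these data known. All members are named, and some of the cell type markers. From every other list, at most the 4 called genes with the largest difference per contrast are named. The procedure was tested on simulated data. Alternatives were median centring, quantile normalization, trend and robust moderation, a filter on dim genes (log2 under 6), averaging all probe sets of a gene, array weights, fitting only the groups compared, the unpaired t-test of the study's methods with Benjamini-Hochberg adjustment, stricter thresholds and leaving out each array. The dimmer probe set of Cdkn1b was added after seeing the data.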

Additional observations from a re-analysis of the deposited data

Results flagged for a closer look

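The TNFα response differed between SIMPL-/- and littermate MEFs, by the test of the difference itself, for Cdkn2b (-0.49), Btg2 (-0.76) and Fas (-0.77), each with a smaller rise in SIMPL-/- MEFs. A single array stood apart from the rest of its group by Dixon's ratio at the 95% level in 3 of 40 groups of 4 arrays, and chance flags about 5% of such groups. These were Ccng1 on treated littermate replicate 1 (11.95), Sesn2 on untreated littermate replicate 4 (9.52) and Cdkn2a on untreated SIMPL-/- replicate 2 (7.49), each the lowest of its group.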

How the results depend on the processing

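No paired analysis was possible because the labels do not say which treated and untreated arrays came from the same set of MEFs. Requiring a fold over 1.5 beside the adjusted p left 0 of 3 members called for the TNFα response in SIMPL-/- MEFs, 0 of 3 for that in littermate MEFs, 0 of 1 for the difference between the responses, 3 of 7 for the genotype difference after TNFα and 1 of 5 for that without it. When single arrays were left out, the counts ran from 2 to 4, 2 to 3, 1 to 1, 6 to 7 and 5 to 5 in the same order. With all probe sets of a gene averaged, the genotype difference of the proliferation gene Top2a without TNFα turned to 0.012, against -0.17 with the brightest probe set. Of 5828 values under alternatives, over the measured members and other CDK inhibitors in every contrast and the other listed genes only where they were called, 5415 kept their direction or stayed uncalled, 401 lost their call, 11 gained one and this 1 reversed. The cause was not tested.

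Counts over all genes moved by more than 1.5 times for the TNFα response in SIMPL-/- MEFs, at 623, to 406 with the compared arrays alone, 241 with the methods' t-test, 313 at an adjusted p under 0.01, 104 with the fold and 400 without treated SIMPL-/- replicate 2. For littermate MEFs, 1026 became 501 with the t-test, 535 at 0.01 and 201 with the fold. For the difference between the responses, 107 became 253 with trend and robust moderation, 182 with array weights, 43 at 0.01, 50 with the fold, 66 without treated SIMPL-/- replicate 2 and 184 without treated SIMPL-/- replicate 3. With the fold, 7230 and 8151 genotype differences became 1604 and 1385. With the t-test the TNFα calls in littermate MEFs were 4 in place of 10 for the other p53 targets (Ddit4l lost), 1 in place of 2 for the regulators of p53 (Ppp1r13b lost), 0 in place of 1 for the CDKs and cyclins (Ccne1 lost), 4 in place of 5 for the regulators of the Cdkn2a-Cdkn2b locus, 2 in place of 4 for those of p27 and p21 (Myc lost) and 1 in place of 0 for the RB and E2F genes. In SIMPL-/- MEFs they were 3 and 3 for the other p53 targets, 0 in place of 1 for the RB and E2F genes (E2f8 lost) and 2 in place of 3 for the regulators of p27 and p21 (Foxo1 lost). Fas lost its response in SIMPL-/- MEFs (adjusted p = 0.168) and its difference between the responses (0.0989). Btg2 lost its genotype difference after TNFα (0.0613), which limma also lost without treated littermate replicate 3 (0.0548). After TNFα the genotype calls were 22 in place of 26 for the other p53 targets, 6 in place of 9 for the regulators of p53, 4 in place of 6 for those of p27 and p21 and 6 in place of 8 for the proliferation genes. Over all genes they were 5698 in place of 7230. Without TNFα they were 7218 in place of 8151 over all genes. There Cdkn2d lost its call (0.0506), and so did the neighbours Zfp352 and Dmrta1. Other counts rose, to 10 from 9 for the regulators of p53, 5 from 4 for the CDKs and cyclins and 6 from 5 for the RB and E2F genes. Every list given 0 by limma for a TNFα response or the difference between them also had 0 with the t-test, the RB and E2F genes in littermate MEFs excepted. Median centring made 73.2% of the calls for SIMPL-/- MEFs rises, against 55.4% as deposited. Sesn2 lost its genotype difference after TNFα with the compared arrays alone (adjusted p = 0.0567) and with quantile normalization (0.059). Mdm2 lost its TNFα call in SIMPL-/- MEFs, and Sesn2 its TNFα call in littermate MEFs, with the compared arrays alone and with the t-test. Trp53inp1 gained one in SIMPL-/- MEFs with quantile normalization and with trend and robust moderation, Cdkn2c with the dim filter and array weights, Cdkn2d with the dim filter, trend and robust moderation and array weights, and Cdkn2b gained a genotype difference without TNFα with quantile normalization (0.16). Cdkn2d also gained its TNFα call in SIMPL-/- MEFs without untreated littermate replicate 4 or treated SIMPL-/- replicate 1.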
